A study of Mus musculus with 10 samples.

Results

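The genes described here are the neuronal nicotinic acetylcholine receptor subunits Chrna2, Chrna3, Chrna4, Chrna5, Chrna6, Chrna7, Chrna9, Chrnb2, Chrnb3 and Chrnb4. They were chosen by name as a gene family, and they are 10 of the 24421 gene rows in the count files. The samples were 10 pools of neurons of the mouse vagal sensory ganglia, each neuron drawn singly into a pipette, and they form 5 groups of 2 pools. The nodose ganglion is the caudal, placode-derived part of the fused complex and the jugular ganglion is its rostral, neural crest-derived part. The comparison of the ganglia asks which transcripts set their C-fiber neurons apart.

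In the Trpv1-tdTomato selection, neurons came from 2 mice of a strain in which Cre expressed from the Trpv1 gene switches on a red tdTomato reporter. A cell is therefore red if it expresses Trpv1 or did so earlier in its life. The groups were red nodose neurons (Trpv1+ nodose, 30 cells a pool), red jugular neurons (Trpv1+ jugular, 30 cells a pool) and nodose neurons without the reporter (Trpv1- nodose, 15 cells a pool). In the capsaicin selection, neurons of C57BL/6 mice were tested in a calcium assay before picking. Nodose neurons (pools of 14 and 15 cells) were kept if both capsaicin and the P2X agonist α,β-methylene ATP raised their calcium. Jugular neurons (pools of 15 and 16 cells) were kept if capsaicin did so and the P2X agonist did not. The animals' ages are not given in the sources used here. The selections also differ in strain, sequencing core and depth, and these cannot be told apart. Nothing states that the 2 pools of a group came from different animals, so p-values measure only the spread between pools.

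Total counts were 148452506 to 167704327 in the Trpv1-tdTomato selection and 17666710 to 30810863 in the capsaicin selection. Levels are given as CPM, counts scaled to a common library size, made with DESeq2 size factors within each selection, so levels of the selections are set side by side and were not compared by a test. A count of 3, taken as the lowest value that can be told from 0, was worth 0.0166 to 0.0229 CPM in pools of the Trpv1-tdTomato selection and 0.124 to 0.14 CPM in those of the other. The defining markers followed the labels. The nodose markers P2rx2 and Hoxb5 were at 87.9 CPM or more in each of the 6 nodose pools and at 0.249 CPM or less in each of the 4 jugular pools. Trpv1 itself was at 25.8 CPM or more in the 8 pools picked as Trpv1-positive or capsaicin-sensitive and at 0.045 and 0.0497 CPM in the Trpv1- nodose pools. It was at 25.8 and 37.9 CPM in Trpv1+ jugular pools but at 300 and 178 CPM in Trpv1+ nodose pools. The mechanosensory markers Piezo2, P2ry1, Nefh and Pvalb summed to 427 and 596 CPM in Trpv1+ jugular pools. Their sum was 117 and 256 CPM in Trpv1+ nodose pools, and only Pvalb overlapped between these groups. The part of these differences in the values below was not tested. The jugular markers Prdm12 and Tac1 were at 23.5 CPM or more in the jugular pools and at 1.14 CPM or less in the nodose pools. Of the 10 glial markers, Apoe, Fabp7, Pmp22 and S100b were at 48.6 CPM or more in all 10 pools, and their part in the values below was not tested.

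Nicotinic receptors are pentameric cation channels that open when acetylcholine or nicotine binds at the interface of an alpha subunit and its neighbour. Chrna3 with Chrnb4 makes the main receptor of autonomic ganglia, Chrna4 with Chrnb2 the main high-affinity receptor of the brain, while Chrna7 can form a receptor on its own. Chrna5 and Chrnb3 are accessory subunits that join other alpha and beta subunits, and Chrna6 is known from midbrain dopamine neurons, the retina and sensory neurons. Nicotine is a classical stimulus of vagal C-fibers in the airways, where it evokes reflexes such as cough.

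The family was read out very unevenly. Chrna3, Chrna6, Chrnb2, Chrnb3 and Chrnb4 reached 10 CPM in both pools of at least 1 group. Chrna4 and Chrna5 had counts but never reached 10 CPM. Chrna2, Chrna7 and Chrna9 had 0 counts in each of the 10 pools, which allows at most 0.0166 to 0.0229 CPM a pool in the deeper selection and 0.124 to 0.14 CPM in the other. These limits cover counting error only, since the amplified reads carry no molecular identifiers.

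**Figure D1:**
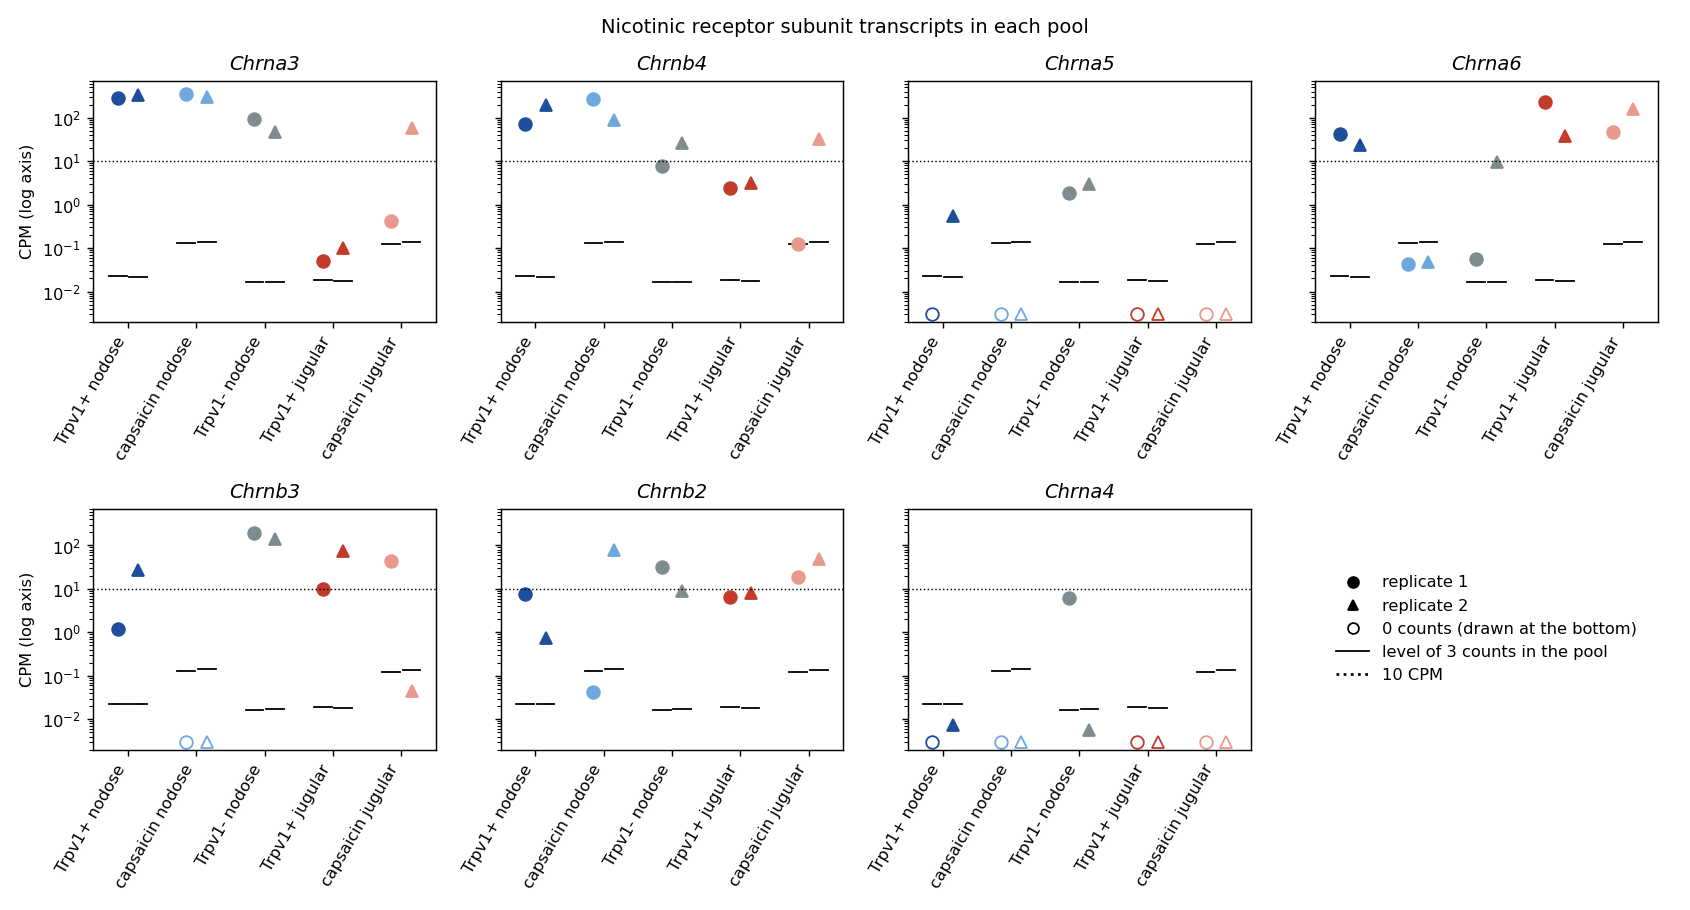
CPM of the 7 subunits with any count, by pool, on a log axis. Circles are replicate 1 and triangles replicate 2, open symbols at the bottom edge are pools with 0 counts, the short bars mark the level of 3 counts in that pool and the dotted line marks 10 CPM. Chrna3 is high in all 6 nodose pools and in 1 of the 4 jugular pools. Chrna6 is above 10 CPM in all 4 jugular pools and also in both Trpv1+ nodose pools.

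Chrna3 and Chrnb4 lie side by side on chromosome 9 (GRCm38, GENCODE vM21), both on the minus strand. Chrna3 spans 55010111 to 55026562 and Chrnb4 spans 55028154 to 55048779, with 1591 bases between them. Chrna5 lies on the other side of Chrna3 on the plus strand, at 54980880 to 55007779, 2331 bases away. In RefSeq, however, the Chrna5 and Chrna3 transcription units overlap by 1304 bases. The strand setting of the counting is not given in the sources used here, so reads of that overlap cannot be told apart.

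Promoter sequence of RefSeq (GRCm38.p6) was found for 7 of the 10 members, all but Chrna2, Chrna6 and Chrnb3. The 250 bases before the start of Chrna3 (chr9:55026563-55026812, minus strand) are shown because Chrna3 is the subunit that was called between the ganglia. Capitals mark the GC box, GGGCGG on either strand.
Chrna3: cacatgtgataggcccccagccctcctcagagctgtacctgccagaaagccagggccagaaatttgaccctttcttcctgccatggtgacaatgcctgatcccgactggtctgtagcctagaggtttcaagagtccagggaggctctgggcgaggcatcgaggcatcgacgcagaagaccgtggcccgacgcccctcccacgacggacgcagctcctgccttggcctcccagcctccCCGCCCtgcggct
The Chrna3 stretch held 1 GC box, where 32.7% of the 32851 promoter stretches in the table held at least 1. It held 2 E-boxes (CANNTG, which reads the same on both strands) and 0 copies of TAAT on either strand, against 66.2% and 54.9% of all promoter stretches with at least 1. Its GC content was 63.2%, and the median of all promoter stretches was 52.4%. Each motif was counted on its own, and matches were counted also where they shared bases, as the 2 E-boxes at the start of the stretch do. A match is only a description of these letters.

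Chrna3, the alpha subunit of the ganglionic receptor, had 278 and 336 CPM in the Trpv1+ nodose pools, from 36316 and 45375 counts. In the Trpv1+ jugular pools it had 0.0498 and 0.101 CPM, from 8 and 17 counts. The capsaicin-sensitive nodose pools had 351 and 294 CPM. The capsaicin-sensitive jugular pools had 0.415 and 56.6 CPM, from 10 and 1262 counts, so replicate 2 stood far above the other 3 jugular pools. The Trpv1- nodose pools had 95.3 and 48.1 CPM. Every nodose pool with Trpv1 therefore held more Chrna3 than the other 6 pools, and in a pool of cells more cells with the transcript and more transcript per cell cannot be told apart. In the order of group means, the Trpv1+ nodose and capsaicin-sensitive nodose groups (307 ± 41.5 and 322 ± 40.2 CPM, SD, n = 2 each) overlapped, and the Trpv1- nodose and capsaicin-sensitive jugular groups (71.7 ± 33.4 and 28.5 ± 39.7 CPM, SD, n = 2 each) also overlapped. The Trpv1+ jugular group came last, below each other pool.

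Chrna3 was higher in Trpv1+ nodose than in Trpv1+ jugular neurons by a log2 fold change of 11.93 (SE 0.889, adjusted p = 0.0312, edgeR's quasi-likelihood test with Benjamini-Hochberg adjustment over 10990 genes). Calls required an adjusted p no higher than 0.1, a fold of 2 or more and 10 CPM in both pools of a group. Of the 5 members tested, Chrna3 was the 1 called, and 0.318% of all genes tested were called. The unadjusted p was under 0.05 for Chrna3 and Chrnb4, 2 of the 5, and for 11.9% of all genes tested. The call was lost when any 1 of the 4 pools was left out, with log2 fold changes of 11.5 to 12.5 and adjusted p of 0.324 to 0.702, and in those fits 0 of all genes were called. It was also just lost in a fit to all 10 pools (adjusted p = 0.103 by edgeR).

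In the capsaicin selection, the log2 fold change of Chrna3 between nodose and jugular neurons was 3.34 (SE 2.01, adjusted p = 0.677 by edgeR), which missed the threshold. Leaving out 1 pool at a time moved this value between 2.38 and 9.52, and 9.52 is the value without jugular replicate 2. That pool had the nodose markers P2rx2, Hoxb5 and Tbx3 at 0.0897, 0 and 0.0448 CPM, against at least 31.1 CPM in the nodose pools of its selection. The Chrna3 difference between ganglia itself differed between the selections by 8.64 on the log2 scale (SE 2.39, adjusted p = 0.478, edgeR), which also missed the threshold, and by 2.46 without capsaicin-sensitive jugular replicate 2. Across both selections the log2 fold change was 7.63 (SE 2.65, adjusted p = 0.349, edgeR), and leaving out 1 pool at a time moved it between 4.93 and 10.96. It was 4.93 and 4.94 without Trpv1+ jugular replicate 1 and 2, and 10.96 without capsaicin-sensitive jugular replicate 2, where alone among these fits it was called.

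Between Trpv1+ and Trpv1- nodose neurons the log2 fold change of Chrna3 was 2.02 (SE 0.516, adjusted p = 0.366 by edgeR). The pools did not overlap, but 0 of the 6 members tested here were called, and 0.0527% of all 11386 genes tested were. All 6 members had pools without overlap in this comparison, as 41.1% of all genes tested did. By edgeR the unadjusted p was under 0.05 for 2 of the 6, Chrna3 and Chrnb4, and for 11.1% of all genes tested, and DESeq2 called 0 members and 2.69% of all genes. The same Trpv1+ nodose pools enter this comparison and that with jugular neurons.

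Chrnb4, the beta subunit that pairs with Chrna3 in autonomic ganglia, had 72.2 and 197 CPM in the Trpv1+ nodose pools. It had 2.43 and 3.14 CPM in the Trpv1+ jugular pools. The capsaicin-sensitive nodose pools had 265 and 89.9 CPM and the capsaicin-sensitive jugular pools 0.124 and 32.0 CPM, the lower from 3 counts. The Trpv1- nodose pools had 7.62 and 25.8 CPM. The 4 nodose pools with Trpv1 again held the highest levels, and jugular replicate 2 of the capsaicin selection again stood above the other jugular pools. In the order of group means, the capsaicin-sensitive nodose and Trpv1+ nodose groups overlapped. The Trpv1- nodose, capsaicin-sensitive jugular and Trpv1+ jugular groups followed, and each overlapped the next in its pools.

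The log2 fold change of Chrnb4 between Trpv1+ nodose and Trpv1+ jugular neurons was 5.55 (SE 1.18, adjusted p = 0.321 by edgeR), which missed the threshold although the pools did not overlap. DESeq2's Wald test called it with an adjusted p of 0.00237, where it called 3.55% of all genes tested. Chrna3 and Chrnb4 were the 2 of 5 members without overlap in this comparison, and 42.5% of all genes tested had no overlap. In the capsaicin selection the log2 fold change of Chrnb4 was 3.3 (SE 2.33, adjusted p = 0.801 by edgeR), and 10.35 without jugular replicate 2. Across both selections it was 4.47 (SE 1.53, adjusted p = 0.342 by edgeR), and 6.9 without that pool. Between Trpv1+ and Trpv1- nodose neurons it was 2.92 (SE 1.09, adjusted p = 0.422 by edgeR).

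**Figure D2:**
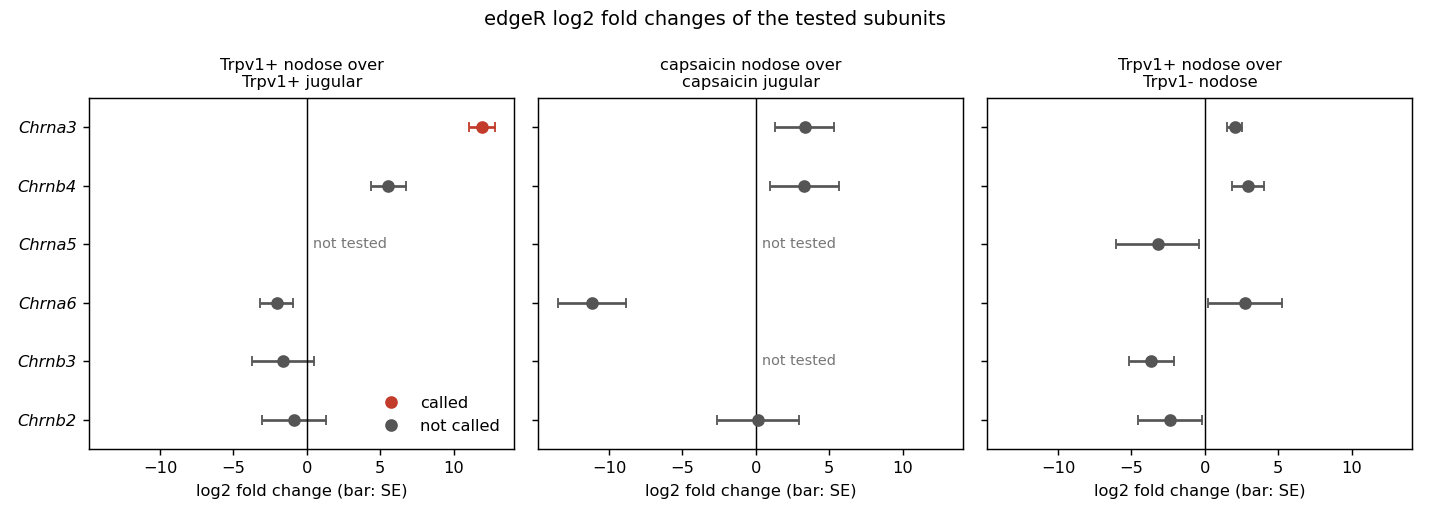
Log2 fold changes of the subunits tested by edgeR in the 3 comparisons of 2 against 2 pools, with bars for the standard error. The red point, Chrna3 in Trpv1+ nodose over Trpv1+ jugular neurons at 11.93, is the only one called, and Chrna6 in the capsaicin selection lies at -11.16 without being called.

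Chrna5, the accessory subunit of the same cluster, stayed low. The Trpv1+ nodose pools had 0 and 75 counts, the latter 0.556 CPM, and the Trpv1- nodose pools had 1.85 and 3.05 CPM from 334 and 542 counts. All 4 jugular pools and both capsaicin-sensitive nodose pools had 0 counts. Chrna5 was thus read out in 3 of the 6 nodose pools and in 0 of the 4 jugular pools. Between Trpv1+ and Trpv1- nodose neurons its log2 fold change was -3.22 (SE 2.81, adjusted p = 0.845 by edgeR), which depends on the prior count because 1 pool is at 0. It was -2.2 without Trpv1+ nodose replicate 1, the pool at 0, and -11.66 without replicate 2.

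The protein-coding neighbours of the cluster are given beside it. Psma4, a proteasome subunit next to Chrna5, ranged from 57.2 to 312 CPM over all 10 pools. Its log2 fold change between Trpv1+ nodose and Trpv1+ jugular neurons was -0.15 (SE 0.47, adjusted p = 0.976 by edgeR). Ube2q2, a ubiquitin-conjugating enzyme on the far side of Chrnb4, ranged from 45.3 to 510 CPM, with a log2 fold change of -0.02 (SE 0.789, adjusted p = 0.999 by edgeR). Fbxo22, an F-box protein gene next to it, had 0.138 and 20.7 CPM in Trpv1+ nodose and 65.6 and 51.4 CPM in Trpv1+ jugular pools. Its log2 fold change was -2.54 (SE 2.27, adjusted p = 0.836 by edgeR).

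**Figure D3:**
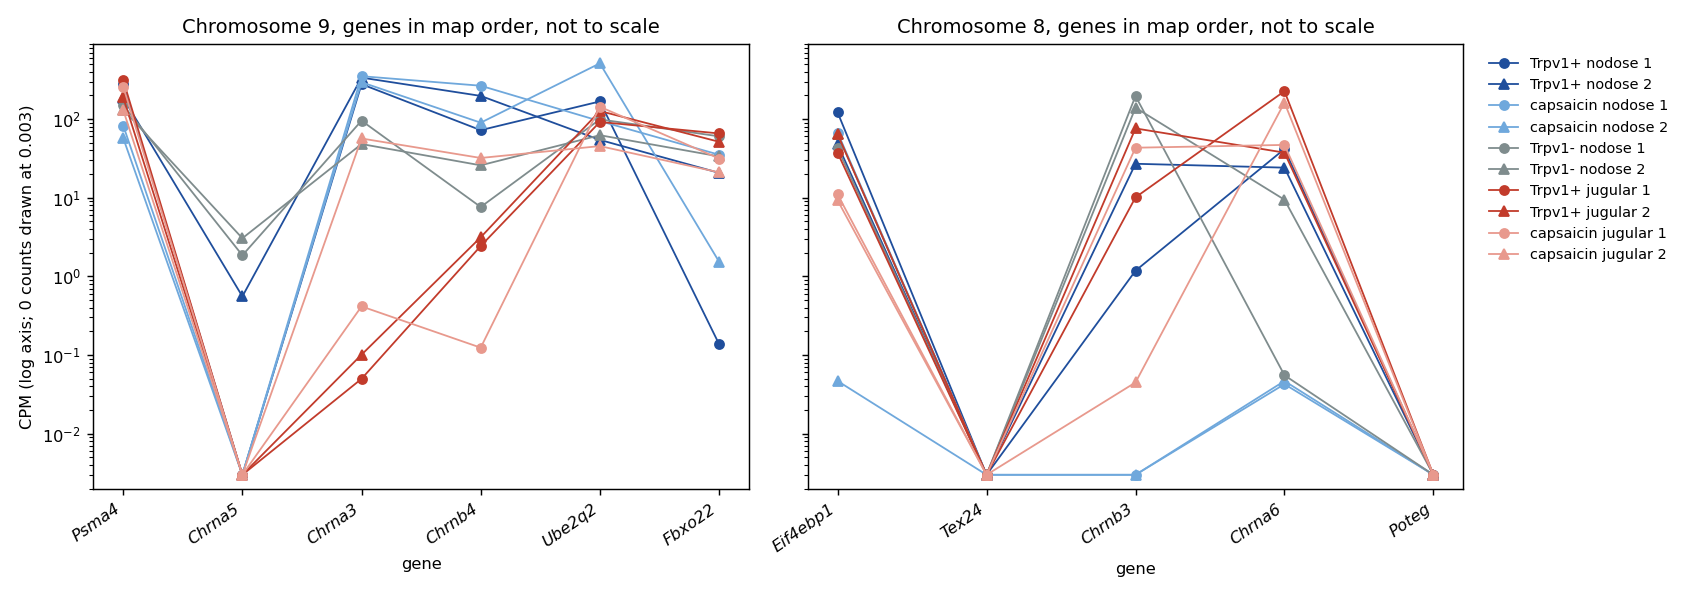
CPM on a log axis of the subunit genes and their nearest protein-coding neighbours in map order on chromosomes 9 and 8, with distances not to scale. Each line joins the values of 1 pool only to guide the eye. Chrna3 and Chrnb4 separate the pools over several orders of magnitude, while Psma4 and Ube2q2 beside them stay within 57.2 to 312 and 45.3 to 510 CPM. Among the other neighbours drawn, Fbxo22 ranges from 0.138 to 65.6 CPM and Eif4ebp1 from 0.0467 to 121 CPM.

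Chrna6, an alpha subunit that takes the place of Chrna3 or Chrna4 in some receptors, had another distribution. The Trpv1+ jugular pools had 226 and 37.4 CPM and the capsaicin-sensitive jugular pools 46.9 and 162 CPM. The Trpv1+ nodose pools had 41.6 and 24.1 CPM. The capsaicin-sensitive nodose pools had a single count each, and the Trpv1- nodose pools had 0.0553 and 9.43 CPM from 10 and 1676 counts. All 4 jugular pools were thus above 10 CPM, but Trpv1+ nodose replicate 1 (41.6 CPM) lay above Trpv1+ jugular replicate 2 (37.4 CPM). In the order of group means, the Trpv1+ jugular, capsaicin-sensitive jugular and Trpv1+ nodose groups (132 ± 133.4, 104 ± 81.3 and 32.8 ± 12.4 CPM, SD, n = 2 each) came before the Trpv1- nodose and the capsaicin-sensitive nodose groups. The jugular groups overlapped each other, the Trpv1+ groups overlapped each other, and the Trpv1+ nodose pools lay above the Trpv1- nodose pools. The capsaicin-sensitive nodose pools were under their limits of 3 counts (0.128 and 0.14 CPM), which lie above Trpv1- nodose replicate 1, so the order of these groups is not known.

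In the Trpv1-tdTomato selection the log2 fold change of Chrna6, nodose over jugular, was -2.06 (SE 1.13, adjusted p = 0.634 by edgeR), and it ran from -2.85 to -0.25 with 1 pool left out, -0.25 being without Trpv1+ jugular replicate 1. In the capsaicin selection it was -11.16 (SE 2.34, adjusted p = 0.352 by edgeR). The counts of both pools of a group, over their size factors, gave a jugular to nodose ratio of 2294 with an exact 95% counting interval of 635 to 18948, from 4741 against 2 counts. This interval covers the sampling of reads and not the spread between pools. Of the 4 members tested in the capsaicin selection, 0 were called by edgeR, as were 0 of all 8181 genes tested (0.0%). Chrna6 was the 1 member with an unadjusted p under 0.05, as were 14.1% of all genes tested. DESeq2 called Chrna6 with an adjusted p of 0.000298 and 6.15% of all genes tested. Chrna3, Chrna6 and Chrnb4 had pools without overlap there, and 41.5% of all genes tested had none.

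The difference of Chrna6 between ganglia differed between the selections by 9.24 on the log2 scale (SE 2.42, adjusted p = 0.478, edgeR), and 0 of all 11959 genes tested (0.0%) were called in that interaction by edgeR. DESeq2 called Chrna3 and Chrna6 there, and 7.42% of all genes it tested. An unadjusted p under 0.05 was given by edgeR to 2 of the 5 members, Chrna3 and Chrna6, and to 10.3% of all genes. Across both selections the log2 fold change of Chrna6 was -6.32 (SE 2.75, adjusted p = 0.424 by edgeR). It was -3.58 and -3.59 without capsaicin-sensitive nodose replicate 1 and 2, and -9.4 and -9.34 without Trpv1+ jugular replicate 1 and 2. There too 0 of the 5 members tested were called by edgeR, against 0.577% of all genes, and 3 of 5 had an unadjusted p under 0.05, against 11.1% of all genes. DESeq2 called Chrna3, Chrna6 and Chrnb4, and 7.63% of all genes.

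Chrnb3, the accessory beta subunit, lies 3481 bases from Chrna6 on chromosome 8 (27368711 to 27399730, plus strand, with Chrna6 at 27403212 to 27413944 on the minus strand). It was at 196 and 139 CPM in the Trpv1- nodose pools, above each of the other 8 pools. The Trpv1+ nodose pools had 1.18 and 27.0 CPM and the Trpv1+ jugular pools 10.1 and 76.0 CPM. Both capsaicin-sensitive nodose pools had 0 counts, and the capsaicin-sensitive jugular pools had 43.2 CPM and 1 count. The Trpv1- nodose pools lay within a fold of 1.41 of each other, while the pools of the Trpv1+ groups lay 22.8-fold (nodose) and 7.55-fold (jugular) apart. In the order of group means the Trpv1+ jugular, capsaicin-sensitive jugular and Trpv1+ nodose groups overlapped.

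The log2 fold change of Chrnb3 between Trpv1+ and Trpv1- nodose neurons was -3.65 (SE 1.52, adjusted p = 0.48 by edgeR), with -2.7 without Trpv1+ nodose replicate 1 and -7.21 without Trpv1+ nodose replicate 2. Between Trpv1+ nodose and Trpv1+ jugular neurons it was -1.66 (SE 2.11, adjusted p = 0.911 by edgeR), with overlapping pools. Chrnb3 did not pass the filter on low counts in the capsaicin selection. Against the limit of 3 counts per pool its mean in the jugular pools was at least 161-fold higher than in the nodose pools, but 1 of the 2 jugular pools carried that mean. Of the neighbours of Chrnb3 and Chrna6, Tex24 and Poteg had 0 counts in all 10 pools, and Gm45861 is not among the genes counted. Eif4ebp1, a translation repressor upstream of Chrnb3, had 37.2 to 121 CPM in the Trpv1-tdTomato selection and 0.0467 to 67.2 CPM in the capsaicin-sensitive pools.

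Chrnb2, the beta subunit of the main brain receptor, differed widely between pools of the same group. The Trpv1+ nodose pools had 7.44 and 0.734 CPM and the Trpv1+ jugular pools 6.61 and 7.99 CPM. The capsaicin-sensitive nodose pools had 0.0426 CPM (1 count) and 80.5 CPM, and the jugular pools of that selection had 18.7 and 48.6 CPM. The Trpv1- nodose pools had 31.8 and 8.74 CPM, both above the Trpv1+ nodose pools. The nodose to jugular log2 fold change was -0.88 (SE 2.16, adjusted p = 0.965 by edgeR) in the Trpv1-tdTomato selection (-3.37 without Trpv1+ nodose replicate 1 and -0.02 without replicate 2) and 0.13 (SE 2.81, adjusted p = 1.0 by edgeR) in the other. Between Trpv1+ and Trpv1- nodose neurons it was -2.39 (SE 2.17, adjusted p = 0.855 by edgeR), from -4.85 without Trpv1+ nodose replicate 1 to -1.2 without Trpv1- nodose replicate 1. On chromosome 3 the GENCODE model of Chrnb2 (89746195 to 89764632) overlaps Adar, an RNA-editing enzyme gene on the other strand, while its RefSeq model starts at 89753448, after the end of Adar at 89753446. Which model the counts used is not given in the sources used here.

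Chrna4, the alpha partner of Chrnb2 in brain, had 1147 counts (6.34 CPM) in replicate 1 of the Trpv1- nodose pools. It had 1 count in replicate 2 of that group, 1 count in Trpv1+ nodose replicate 2 and 0 counts in the other 7 pools. It passed the filter in 0 comparisons, and its 1148 against 1 counts in Trpv1- over Trpv1+ nodose neurons rest on a single pool.

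To set the subunits beside each other, levels were divided by summed exon length (CPM per kb). In the Trpv1+ nodose pools Chrna3 made up 49.3% to 60.3% of the members' summed CPM per kb and Chrnb4 22.2% to 40.8%, followed by Chrna6 with 6.4% to 16.4%. In the capsaicin-sensitive nodose pools the shares were 48.3% to 62.3% for Chrna3 and 27.0% to 51.7% for Chrnb4, and at most 0.0179% for Chrna6. Chrna3 and Chrnb4 thus led in each of the 4 nodose pools with Trpv1. Which of them came first in capsaicin-sensitive nodose replicate 1 depended on the length used, with Chrna3 at 48.3% and Chrnb4 at 51.7% by summed exons and at 53.0% and 47.0% by the longest transcript. In the Trpv1- nodose pools Chrnb3 led with 50.6% to 54.4%, and Chrna3 held 21.1% to 32.0%.

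In the jugular pools Chrna6 held 48.4% to 96.3% in the Trpv1+ group and 63.9% to 68.9% in the capsaicin-sensitive group. It led in 3 of the 4 jugular pools by either length. In Trpv1+ jugular replicate 2 Chrna6 held 48.4% and Chrnb3 44.8% by summed exons, and 40.8% and 52.5% by the longest transcript. In Trpv1+ jugular replicate 1 Chrnb3 held 1.96%. In the capsaicin-sensitive jugular pools Chrnb3 held 26.8% in replicate 1 and 0.00871% in replicate 2, where Chrna3 held 13.3% and Chrnb4 10.6%. The summed level of all members was 25.3 to 80.9 CPM per kb in jugular pools and 43.2 to 138 CPM per kb in nodose pools, so these sums overlapped between the ganglia. The Chrna3 to Chrnb4 ratio per kb was 0.935 to 2.72 in the 4 nodose pools with Trpv1 and 8.85 and 1.32 in the Trpv1- nodose pools.

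**Figure D4:**
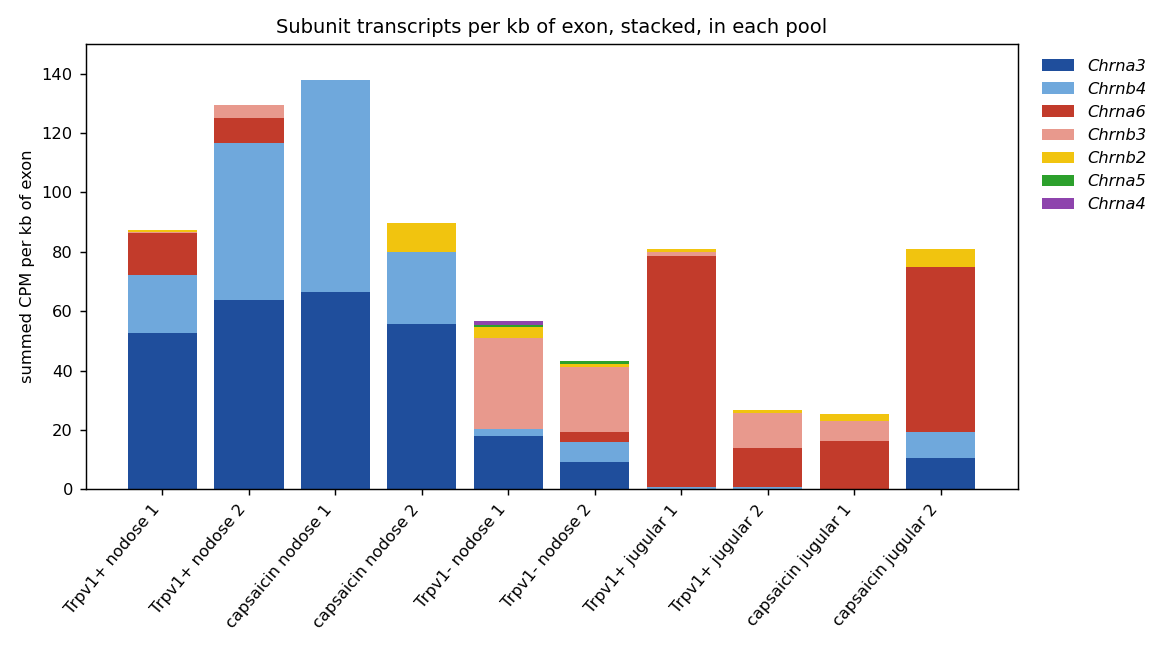
Stacked CPM per kb of exon of the subunits in each pool, with 1 bar a pool. Nodose pools with Trpv1 are mostly Chrna3 and Chrnb4, Trpv1- nodose pools hold Chrnb3 at 50.6% to 54.4%, and Chrna6 holds 48.4% to 96.3% in the jugular pools.

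Over the 10 pools, log2(CPM + 1) of Chrna3 and Chrnb4 had a Pearson correlation of 0.91 and a Spearman correlation of 0.93. Chrna3 and Chrna6 had -0.58 and -0.7, and Chrna6 and Chrnb3, the neighbours on chromosome 8, had 0.02 and 0.09. These values are descriptions, and the pools share group, selection and depth. In the Trpv1+ nodose pools, for example, Chrna6 and Chrna3 were both present.

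**Figure D5:**
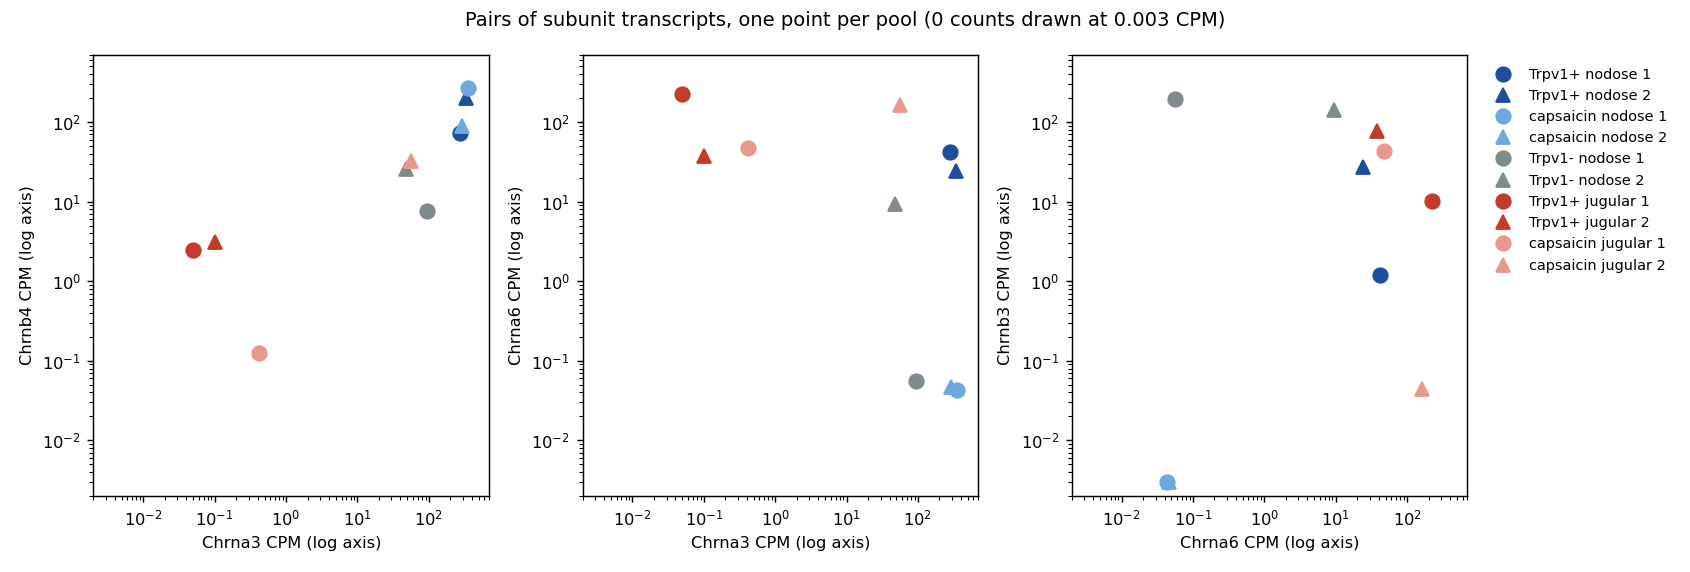
CPM of 3 pairs of subunits, 1 point a pool, on log axes, with colours for groups and pools at 0 counts drawn at the lower edge. Chrnb4 goes with Chrna3 (Pearson 0.91), Chrna6 is at a single count in both capsaicin-sensitive nodose pools where Chrna3 is at 294 and 351 CPM, and Chrnb3 shows no such relation with Chrna6 (Pearson 0.02).

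Of the 7979 genes at 10 CPM in both pools of a group, those most like each subunit were named by Pearson correlation of log2(CPM + 1) over the 10 pools. For Chrna3 they were Map2 (0.973), a microtubule-associated protein of dendrites, Etv1 (0.973), an ETS transcription factor, and Ppfibp1 (0.958), a liprin. Etv1 had 108 CPM in capsaicin-sensitive jugular replicate 2 and at most 0.373 CPM in the other 3 jugular pools. Chrna3 had 56.6 CPM in capsaicin-sensitive jugular replicate 2. Map2 had 19.1 CPM in that pool and at most 2.24 CPM in the other 3. Both genes were picked by their correlation over these same pools, so these levels are part of that correlation and add nothing to it. For Chrnb4 they were Arl6ip5 (0.908), Pigk (0.883) and again Ppfibp1 (0.881).

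For Chrna6 they were Grm7 (0.93), a presynaptic metabotropic glutamate receptor, Tmem100 (0.917) and Gng12 (0.903), a G protein gamma subunit. Grm7 and Gng12 had 0 CPM in both capsaicin-sensitive nodose pools, where Chrna6 was at a single count. They too were picked over these same pools, so this is part of their correlation and not a further likeness. For Chrnb3 they were Pkn2 (0.973), Nufip1 (0.969) and Smpdl3a (0.965). For Chrnb2 they were Cog4 (0.929), Dip2c (0.925) and Haus1 (0.893). These values too are descriptions over 10 pools that share group, selection and depth.

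The other genes of cholinergic signalling were read from lists by role. Of 6 muscle-type and other nicotinic genes, Chrna1 alone passed the filter in any comparison and was called in 0 of them. Chrna1, the alpha subunit of the muscle receptor, had 12.3 to 84.7 CPM in the Trpv1-tdTomato selection but 0.539 to 1.12 CPM in capsaicin-sensitive pools. Chrna10, which pairs with Chrna9 in hair cells, had 4.01 CPM in Trpv1+ jugular replicate 2 and at most a single count elsewhere. Of 5 muscarinic receptors Chrm1 alone passed the filter and was called in 0 comparisons, with 36.8 CPM in Trpv1+ jugular replicate 1 and at most 2.68 CPM elsewhere. Chrm2, Chrm3 and Chrm5 had 0 counts in all 10 pools.

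Of the 11 measured genes for receptor assembly, clustering and Ly6-type partners, 8 were tested between Trpv1+ nodose and Trpv1+ jugular neurons and 0 were called in either direction. Their median log2 fold change was 0.1, and that of all genes tested was 0.03. Ric3, a chaperone of nicotinic subunits, had 42.7 and 43.9 CPM in Trpv1+ nodose and 33.1 and 7.54 CPM in Trpv1+ jugular pools. Lynx1, a membrane-anchored modulator of nicotinic receptors, had 166 and 145 CPM in Trpv1- nodose pools against 48.5 and 43.7 CPM in Trpv1+ nodose pools, a log2 fold change of -1.84 (SE 0.602, adjusted p = 0.371 by edgeR). Lypd1, a relative of Lynx1, had 62.0 and 37.9 CPM in the Trpv1- nodose pools and at most 0.13 CPM in the Trpv1+ nodose pools (log2 fold change -9.35, SE 2.22, adjusted p = 0.366 by edgeR). Ly6h, a further relative, had 47.1 and 93.1 CPM in the Trpv1+ jugular pools and at most 0.296 CPM in each of the other 8 pools, and its nodose to jugular log2 fold change was -8.82 (SE 2.33, adjusted p = 0.321 by edgeR).

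Of these assembly and partner genes, 7 were tested between Trpv1+ and Trpv1- nodose neurons, with a median log2 fold change of 0.28 against 0.01 for all genes tested, and 5 were tested in the capsaicin selection, with a median of 0.61 against -0.02. In both, 0 were called.

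Of the 8 genes for acetylcholine synthesis, transport and breakdown, 6 were tested between the Trpv1+ groups, 8 between Trpv1+ and Trpv1- nodose neurons and 2 in the capsaicin selection. In each 0 were called. The median log2 fold changes of the former 2 were 2.21 and 1.16, against 0.03 and 0.01 for all genes tested. The capsaicin selection gave 6.01 over Ache and Chka, against -0.02, and it depends on the prior count because Ache was at a single count in each jugular pool. Ache, which breaks down acetylcholine, had 280 and 347 CPM in Trpv1+ nodose pools and 138 and 56.7 CPM in Trpv1+ jugular pools. The capsaicin-sensitive nodose pools had 155 and 116 CPM of it, and each capsaicin-sensitive jugular pool had a single count (adjusted p = 0.352 by edgeR). Chat, the enzyme that makes acetylcholine, was at 0.956 CPM or less in all 10 pools. Its partners Slc18a3, the vesicular acetylcholine transporter, and Slc5a7, the choline transporter, were at 72.5 and 45.1 CPM in Trpv1+ nodose replicate 1 but at 0.0222 and 1.78 CPM in replicate 2. Slc18a3 was at 9.94 CPM in Trpv1- nodose replicate 2 and at 0.0111 CPM or less in the remaining pools. Slc5a7 was at 57.7 CPM in capsaicin-sensitive nodose replicate 1 and at 12.1 CPM in Trpv1+ jugular replicate 2. It was at 2.4 CPM or less in the remaining pools.

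Because Chrna3 and Chrnb4 are also the receptor of sympathetic neurons, whose ganglion lies close by, markers of those cells were read beside them. Of the 6 listed, Npy and Hand2 had 0 counts in all 10 pools. Dbh, which makes noradrenaline, was at 0.0371 CPM or less in the 4 nodose pools with Trpv1 that had the highest Chrna3, and at 25.2 and 58.8 CPM in the Trpv1- nodose pools. Th, which makes the dopamine precursor, was at 173 and 87.8 CPM in Trpv1+ nodose pools and at 62.8 and 153 CPM in Trpv1+ jugular pools, and in the capsaicin selection at 682 and 548 CPM in nodose and at 0.415 and 0.179 CPM in jugular pools. Slc18a2, the vesicular monoamine transporter, was at 332.9 and 490.7 CPM in capsaicin-sensitive nodose and at 36.8 and 47.3 CPM in capsaicin-sensitive jugular pools. It was at 11.1 and 2.76 CPM in Trpv1+ nodose, 2.59 and 0 CPM in Trpv1+ jugular and 26.2 and 35.4 CPM in Trpv1- nodose pools, and the part of these cells in the subunits' values was not tested. Slc6a2, the noradrenaline transporter, was at 3.08 CPM or less in all 10 pools. The summed level of the list was 92.1 to 185 CPM in Trpv1+ nodose, 66.6 to 153 CPM in Trpv1+ jugular, 104 to 149 CPM in Trpv1- nodose, 1015 to 1041 CPM in capsaicin-sensitive nodose and 37.4 to 47.6 CPM in capsaicin-sensitive jugular pools.

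Markers of other cells were read in the same way. The summed level of the 10 glial markers was 5053 to 5388 CPM in Trpv1+ nodose, 4259 to 5929 CPM in Trpv1+ jugular and 4055 to 4829 CPM in Trpv1- nodose pools, ranges that overlapped between nodose and jugular neurons. It was 1670 to 1673 CPM in capsaicin-sensitive nodose and 1673 to 1955 CPM in capsaicin-sensitive jugular pools. The glial factor Sox10 was at 0.267 CPM or less in the 8 pools with Trpv1 and at 14.5 and 3.02 CPM in the Trpv1- nodose pools. Of the 6 immune markers, Ptprc, Aif1, Csf1r, C1qa and C1qb had 0 counts in all 10 pools, and Cd68 had 77.3 CPM in capsaicin-sensitive nodose replicate 1 and 18.9 CPM or less elsewhere. Of the 8 markers of vessels, fibroblasts and blood, Dcn and Col1a2 alone were above 1 CPM, with 253 CPM of Dcn in capsaicin-sensitive jugular replicate 1, where Chrna3 was at 0.415 CPM.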

How the data were processed

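RNA of 10 pools was copied and amplified by the authors with an ultra-low input kit primed on poly(A), and per the labels' processing notes reads were aligned to mm10 with TopHat2 2.0.9 and Bowtie2 2.1.0.0 and counted with HTSeq. The deposited values are raw counts per gene symbol. The annotation and strand setting of the counting are not given in the sources used here. The members and gene lists were chosen with earlier results of these data known. Levels are CPM from DESeq2 1.42.0 size factors within each selection. The test was edgeR 4.0.16 (R 4.3.3, TMM, filterByExpr, quasi-likelihood), fitted to all genes of the pools compared, with Benjamini-Hochberg adjustment. The 8 nodose and jugular pools with Trpv1 were also fitted with the selection as a covariate and with its interaction with the ganglion. With 2 pools a group, an exact permutation test of a single gene cannot go below p = 0.33, and none was run. Named genes are the members, the lists, 2 protein-coding neighbours a side, and the 3 genes most correlated with each member. Lengths and positions are from GENCODE vM21, and promoters are from RefSeq. The scripts were tested on simulated data. Some genes of the lists are not reported here.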

Additional observations from a re-analysis of the deposited data

How the results depend on the processing

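Beside each count of members called, the alternatives gave these values. Between Trpv1+ nodose and Trpv1+ jugular neurons edgeR called 1 member. DESeq2's Wald test called 2 (Chrna3 and Chrnb4), the fit to all 10 pools 0, and leaving out 1 pool at a time 0 to 0, with the lone pool taken to vary like the other group. In the capsaicin selection, with 0, no filter on low counts gave 1 and DESeq2 gave 1 (Chrna6 in both). Across both selections, with 0, no filter gave 2, DESeq2 3, the fit to all 10 pools 1 and leaving out 1 pool 0 to 1 (Chrna3, without capsaicin-sensitive jugular replicate 2). For the interaction, with 0, no filter gave 1 and DESeq2 gave 2. Between Trpv1+ and Trpv1- nodose neurons each alternative gave 0. The number of all genes called moved too. Between the Trpv1+ groups it went from 35 to 534 with DESeq2 and 59 without the filter, in the capsaicin selection from 0 to 748 and 122, between Trpv1+ and Trpv1- nodose neurons from 6 to 411 and 10, across both selections from 69 to 1190 and 222, and for the interaction from 0 to 1157 and 95. The fit to all 10 pools called 26, 111, 7, 213 and 7 genes in the same order. Across both selections 38 to 89 genes were called with 1 pool left out, 38 being the count without capsaicin-sensitive jugular replicate 2. DESeq2's size factors in edgeR moved the median log2 fold change of all genes by over 0.1 for the interaction (0.44 to 0.09), across both selections (-0.18 to -0.04) and in the capsaicin selection (-0.02 to 0.09), and turned no member's sign.

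Whether same-numbered pools share an animal is not stated. Deviations of same-numbered pools had correlations of 0.000494 in the Trpv1-tdTomato selection, -0.0101 in the capsaicin selection and -0.00871 between Trpv1+ and Trpv1- nodose pools. With 2 pools a group, these values cannot show whether the replicate numbers pair the pools. With the replicate block 0 members were called between the Trpv1+ groups (Chrna3 at 12.0, adjusted p = 0.119, edgeR) and 13 of all genes. The block turned the sign of Chrnb2 in the capsaicin selection (-3.85) and, for the interaction, of Chrnb2 (2.27) and Chrnb4 (-0.55).

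Leaving out 1 pool turned the sign of members that were not called. Between the Trpv1+ groups Chrnb3 ran from -5.23 to 0.41, and 0.41 is without Trpv1+ jugular replicate 2. In the capsaicin selection Chrnb2 ran from -9.58 (without nodose replicate 2) to 1.15, with -0.38 without jugular replicate 1. Across both selections Chrnb2 ran from -2.34 to 0.12 (without Trpv1+ nodose replicate 2), with 0.04 without capsaicin-sensitive nodose replicate 1. For the interaction Chrnb2 ran from -3.48 to 8.93 (without capsaicin-sensitive nodose replicate 2) and Chrnb4 from -4.81 (without capsaicin-sensitive jugular replicate 2) to 3.24. The cause of these changes was not tested, beyond the smaller number of pools. The shallower capsaicin selection limits counts near 0 to 0.124 to 0.14 CPM.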
